A study of Mus musculus with 4 samples.

Results

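The genes Grm2, Grm3, Grm4, Grm5, Grm6, Grm7 and Grm8, which encode metabotropic glutamate receptors, were followed through a whole-genome bisulfite sequencing data set of the CA1 field of the mouse hippocampus. Their rows were those that carry the gene's name in the deposited table, plus the rows on the same chromosome within 3 kb of the outermost of them. This gave 612 regions, 586 of them under the gene's own name, out of 849172 regions in the table. Each row gives a methylation level in percent over a stretch of DNA, in each of 4 libraries. Grm8 had 191 regions, Grm7 had 170, Grm5 had 93, Grm4 had 71, Grm3 had 54, Grm6 had 17 and Grm2 had 16, and all 612 had a value in every library.

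The libraries came from C57B6/J mice of 117 days. The group labelled Tet2+f_Camk2aCre has 2 libraries, called Cre libraries here, and the group labelled Tet2+f has 2, called control libraries. The series text speaks of CA1 tissue that is haploinsufficient for Tet2 in glutamatergic cells, and Camk2a, the gene named beside Cre, is active in excitatory neurons of the forebrain. Tet2 is a dioxygenase that oxidises 5-methylcytosine, so the comparison asks how methylation differs when its dose is lowered. Every group carries Tet2+f in its label and none carries Cre alone, so lowered Tet2 and the presence of Cre cannot be told apart. The labels do not say whether libraries came from separate mice, so every p-value reflects only how far these libraries scatter, and that scatter may be technical. A methylation level does not show whether the Tet2 allele was recombined, so the group labels were not checked this way. The table gives levels and no read numbers, and the sequencing depth of a given level is therefore unknown. Bisulfite conversion reads 5-methylcytosine and its oxidised form 5-hydroxymethylcytosine alike, and tissue averages over cell types, so a change within cells and a change in cell mix cannot be told apart.

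Metabotropic glutamate receptors are G protein-coupled receptors that bind glutamate through a large extracellular domain. Group I, to which Grm5 belongs, couples to Gq and phospholipase C and sits mainly around postsynaptic sites. Group II (Grm2 and Grm3) and group III (Grm4, Grm6, Grm7 and Grm8) couple to Gi and Go, lower cyclic AMP and mostly dampen transmitter release. In mammalian genomes most CpG cytosines are methylated, while starts of genes that are rich in CpG usually are not.

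None of the 7 genes passed the test of the group difference, whether as single regions, as promoters or as whole loci. The levels of the loci were close in all libraries, except for Grm2. At the gene starts the unmethylated core was low in both groups. Next to it, both Cre libraries were the higher on either side at Grm2 and on the upstream side at Grm4 and Grm7. They were also the higher on the downstream side at Grm5, and none of these regions passed the adjusted threshold. These were 5 of the 14 neighbours of such cores, and the others overlapped. Among 21769 such neighbours at any gene start, 16.8% had both Cre libraries above and 16% below. Within the core itself, both Cre libraries were below both control libraries at Grm2, Grm5 and Grm6.

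Over whole loci the receptor genes fell into a more and a less methylated set. A locus level is the mean of all regions of the gene by the rule above, each region counted equally. Averaged over the 4 libraries, Grm5 was at 80.6%, Grm8 at 79.97%, Grm7 at 79.96%, Grm3 at 76.9%, Grm4 at 68.3%, Grm6 at 64.0% and Grm2 at 62.9%. The libraries of Grm8 overlapped those of Grm5 and those of Grm7, and the libraries of Grm6 and Grm2 overlapped. The order within these pairs lies within the spread. The lowest Grm5 library, at 80.16%, was narrowly above the highest Grm7 library, at 80.12%. However, the Grm5 rows leave out the low regions at its annotated start, with means of 7.45% and 10.9%, and the next one at 44.2%. The other loci include the low regions at their starts. The first rank of Grm5 and its share of regions under 20% are therefore not compared like for like. The less methylated loci are the shorter genes, and regions under 20% made up 12.5% of the rows of Grm2, 23.5% of Grm6 and 12.7% of Grm4, against 1.08% to 3.70% of those of the others. Grm2 spans 11576 bp, Grm6 15840 bp and Grm4 91440 bp, while Grm3 spans 240117 bp, Grm5 551083 bp, Grm8 860026 bp and Grm7 921882 bp. Of the 612 regions, 4.41% had a mean under 20%, 2.12% lay at 20 to 50%, 28.6% at 50 to 80% and 64.9% at 80% or more, against 6.57%, 3.34%, 26.8% and 63.2% of all regions of the series.

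**Figure D1:**
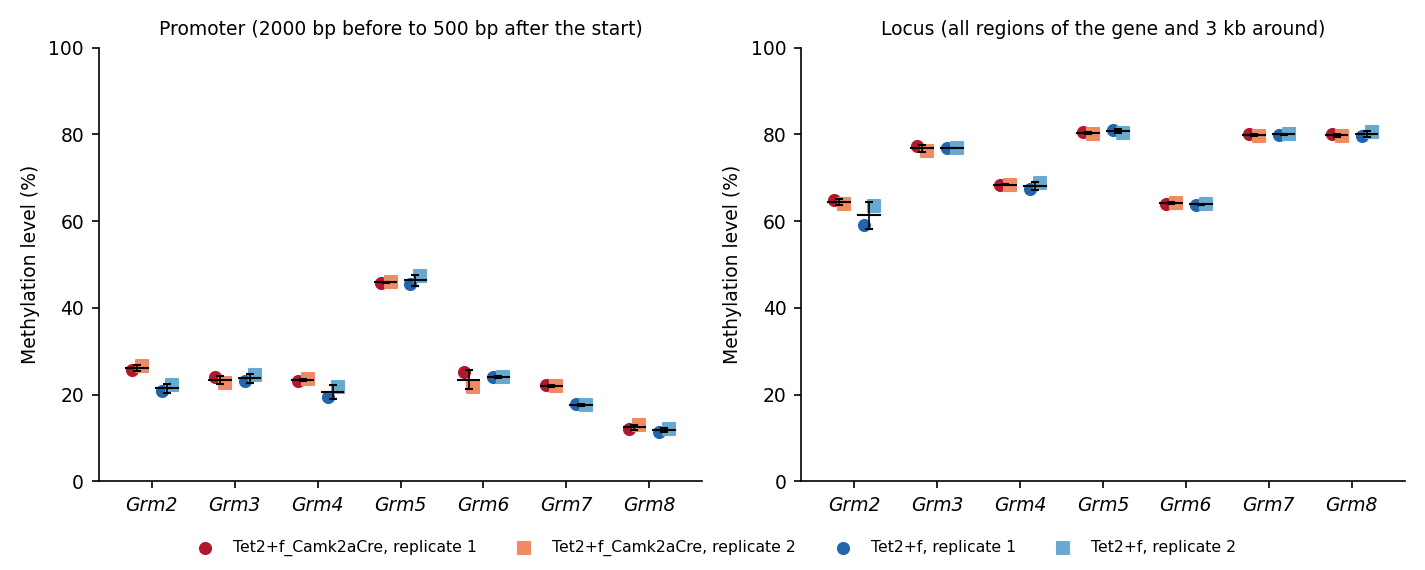
Methylation level (percent) of each gene in each library, over its promoter (left) and its locus (right). Points are libraries, horizontal bars are group means and error bars are SDs over 2 libraries; the promoters of Grm2, Grm4 and Grm7 had both Cre libraries above both control libraries, and the Grm2 locus had 1 control library at 59.2%, below the other 3.

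Grm5, the group I receptor of postsynaptic spines in CA1 pyramidal cells, had locus levels of 80.6% and 80.2% in the Cre libraries, against 81.1% and 80.4% in the control libraries. The groups overlapped, with a difference of -0.388 points (limma adjusted p = 0.999) that was -0.0338 points without control replicate 1 and -0.742 points without control replicate 2. Both group II receptors follow. Grm2, an autoreceptor that lowers glutamate release and is prominent in dentate granule cells, had 64.9% and 63.9% in the Cre libraries, against 59.2% and 63.5% in the control libraries. The Cre libraries were the 2 highest, by a narrow margin over control replicate 2, and the low value of control replicate 1 set most of the gap. The difference was 3.05 points (limma adjusted p = 0.963), and it was 0.873 points without control replicate 1 and 5.22 points without control replicate 2. Grm3, found on neurons and astrocytes, had 77.3% and 76.3% in the Cre libraries and 76.8% and 76.9% in the control libraries, which overlap.

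The group III receptors had locus levels that overlapped between the groups. Grm4, known as a presynaptic receptor of cerebellar granule cells, was at 68.3% and 68.4% in the Cre libraries, against 67.5% and 68.8% in the control libraries. Grm6, the receptor of retinal ON bipolar cells, was at 64.0% and 64.3% in the Cre libraries, against 63.7% and 64.0% in the control libraries. Grm7, a receptor of the presynaptic active zone with low affinity for glutamate, was at 80.1% and 79.7% in the Cre libraries, against 79.99% and 80.03% in the control libraries. Grm8, also presynaptic, was at 80.02% and 79.6% in the Cre libraries, against 79.7% and 80.6% in the control libraries. The differences of these 4 loci were 0.256, 0.272, -0.0943 and -0.320 points in that order (limma adjusted p = 0.999 for each). Over all 25470 loci of the table, 0% passed the adjusted threshold of 0.05, 5.54% had an unadjusted p under 0.05 and 17.2% had both Cre libraries above both control libraries, while 16.2% had them below and the Cre mean was the higher in 51.2%. Of the 7 receptor loci, 0 had an unadjusted p under 0.05 and 1, Grm2, had its Cre libraries above.

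Each receptor gene had a stretch of low-methylated DNA at or near its start, called the unmethylated stretch here. This is common: by the same rule 12375 genes had one, where 19781 promoters had a level. The stretch was taken as the run of neighbouring regions with a mean under 20% nearest to the gene start, within 5000 bp of it. This definition was chosen after the levels were seen. At Grm5 the stretch was less low than at the others. The stretch was 934 bp long at Grm2 (mm10 chromosome 9, 106655707 to 106656640), 1452 bp at Grm3 (chromosome 5, 9725043 to 9726494) and 2433 bp at Grm4 (chromosome 17, 27511373 to 27513805). At Grm6 it covered 1951 bp (chromosome 11, 50849676 to 50851626), and at Grm7 it covered 1454 bp (chromosome 6, 110645558 to 110647011). Grm5 (chromosome 7, 87583825 to 87586920) and Grm8 (chromosome 6, 28133382 to 28136678) had the longest, with 3096 and 3297 bp. The stretch at Grm4 began 21 bp and that at Grm7 209 bp inside the annotated gene, while those of Grm2, Grm3, Grm6 and Grm8 began before the start, at positions -531, -1142, -693 and -1532 bp from it. The deposited table gives the name Grm5 only to regions from 87598865 onward, so the regions over the annotated start of Grm5 lie outside the 612 rows and are described apart from them.

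Both groups were low in these stretches, which follows from how the stretches were chosen. Averaged over its regions, the stretch at Grm8 was at 1.39% and 1.02% in the Cre libraries, against 1.11% and 1.64% in the control libraries. At Grm3 the values were 1.27% and 0.296% in the Cre libraries and 0.397% and 1.30% in the control libraries. The groups overlapped at these 2 genes, as they did at Grm7 with 1.60% and 1.501% in the Cre libraries and 2.13% and 1.26% in the control libraries. At Grm4 the values were 3.03% and 2.14% in the Cre libraries and 2.53% and 1.46% in the control libraries, which also overlap. At Grm2, Grm5 and Grm6 both Cre libraries were below both control libraries. The share of such stretches over all genes was not computed. Among all single regions of the series, 16.8% had both Cre libraries below. The levels at Grm2 and Grm6 lie near the floor, where small gaps decide the order. Grm2 was at 0.333% and 1.48% in the Cre libraries, against 2.01% and 3.83% in the control libraries, and Grm6 was at 0.750% and 0.910% in the Cre libraries, against 1.15% and 1.38% in the control libraries. Grm5 stood highest, with 8.49% and 7.66% in the Cre libraries and 10.9% and 9.64% in the control libraries. Its stretch is made of a region of 660 bp at the start, at 7.15% and 7.19% in the Cre libraries and 7.22% and 8.22% in the control libraries, and a longer one of 2418 bp that was at 9.84% and 8.14% in the Cre libraries and 14.7% and 11.1% in the control libraries. In both regions the Cre libraries were the 2 lowest, with differences of -0.552 and -3.88 points that did not pass (limma adjusted p = 0.971 and 0.937).

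Promoter sequences of 300 bases from RefSeq (GRCm38.p6, the assembly of mm10) differ in CpG content between these starts. The sequences below run 5′ to 3′ in the direction of the gene, each for 300 bases around a transcript start, and every CG is in capitals. They are shown because each overlaps a region or an unmethylated stretch whose level is given here. Matches were found for 5 of the 7 genes.
Grm2, chr9:106656060-106656359, minus strand: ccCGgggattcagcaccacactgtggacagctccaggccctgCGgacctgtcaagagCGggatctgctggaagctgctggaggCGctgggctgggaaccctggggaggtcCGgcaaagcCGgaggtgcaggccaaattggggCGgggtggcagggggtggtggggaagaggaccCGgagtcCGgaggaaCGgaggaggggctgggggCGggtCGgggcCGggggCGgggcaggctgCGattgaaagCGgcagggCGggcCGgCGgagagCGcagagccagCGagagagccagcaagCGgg
Grm3, chr5:9725303-9725602, minus strand: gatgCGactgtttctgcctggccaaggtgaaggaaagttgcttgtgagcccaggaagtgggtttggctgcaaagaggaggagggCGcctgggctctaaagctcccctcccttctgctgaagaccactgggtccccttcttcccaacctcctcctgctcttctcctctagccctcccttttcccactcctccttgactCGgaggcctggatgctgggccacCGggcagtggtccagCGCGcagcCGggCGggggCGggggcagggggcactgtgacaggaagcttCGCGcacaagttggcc
Grm6, chr11:50850435-50850734, plus strand: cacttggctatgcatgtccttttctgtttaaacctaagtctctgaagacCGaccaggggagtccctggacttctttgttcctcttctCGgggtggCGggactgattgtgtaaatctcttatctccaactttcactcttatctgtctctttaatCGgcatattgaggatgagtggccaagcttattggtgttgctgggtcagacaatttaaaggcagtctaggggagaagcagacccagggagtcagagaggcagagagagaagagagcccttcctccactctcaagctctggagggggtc
Grm7, chr6:110645348-110645647, plus strand: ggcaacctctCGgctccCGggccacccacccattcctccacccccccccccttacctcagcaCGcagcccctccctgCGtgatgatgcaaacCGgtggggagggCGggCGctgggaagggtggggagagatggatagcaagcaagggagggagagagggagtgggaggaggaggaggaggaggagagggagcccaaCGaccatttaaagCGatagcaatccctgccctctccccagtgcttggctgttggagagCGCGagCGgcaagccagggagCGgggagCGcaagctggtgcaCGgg
Grm8, chr6:28135097-28135396, minus strand: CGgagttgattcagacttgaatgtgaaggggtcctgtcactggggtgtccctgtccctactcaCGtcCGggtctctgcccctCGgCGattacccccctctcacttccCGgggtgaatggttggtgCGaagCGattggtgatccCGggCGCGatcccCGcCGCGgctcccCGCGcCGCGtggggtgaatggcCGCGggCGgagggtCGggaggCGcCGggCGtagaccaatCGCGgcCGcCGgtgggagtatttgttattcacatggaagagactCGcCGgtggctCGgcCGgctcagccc

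Grm8 holds 33 CG in these 300 bases, more than 91.4% of the 32851 mouse promoter sequences of this length, whose median is 7. Grm2 holds 22, Grm7 15, Grm3 11 and Grm6 4. The Grm6 window, with fewer CG than the median promoter, lies within a region of 1252 bp at 3% and 1.94% in the Cre libraries and 1.87% and 1.36% in the control libraries. Of all promoter sequences, 31.4% hold fewer CG than this window. The CG of the rest of the region were not counted, so its CpG content is not known here. The Grm7 window crosses the edge of its unmethylated stretch: 9 of its CG lie in the upstream region and 6 in the stretch of 399 bp that follows, at 0.900% and 0.663% in the Cre libraries and 1.73% and 0% in the control libraries. Another RefSeq start of Grm7, chr6:110645262-110645561, has 10 CG, all in the upstream region. A further RefSeq start of Grm8, chr6:28126377-28126676, has 2 CG. Both lie in a region at 86.8% and 85.1% in the Cre libraries and 87.8% and 86.7% in the control libraries. Another of Grm8, chr6:28134372-28134671, has 10 CG, in regions with means of 1.02% and 0.655% over the 4 libraries. The starts of Grm8 thus differ in level within each library. The letters GGGCGG, which contain a CG, were searched on both strands. Among the windows shown, they occur 4 times at Grm2, 2 times at Grm3, 1 time each at Grm7 and Grm8 and not at Grm6. They are held by 35.7% of all promoter sequences, and the letters TGACGTCA, which also contain a CG and are held by 1.79%, are in none of these windows.

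**Figure D2:**
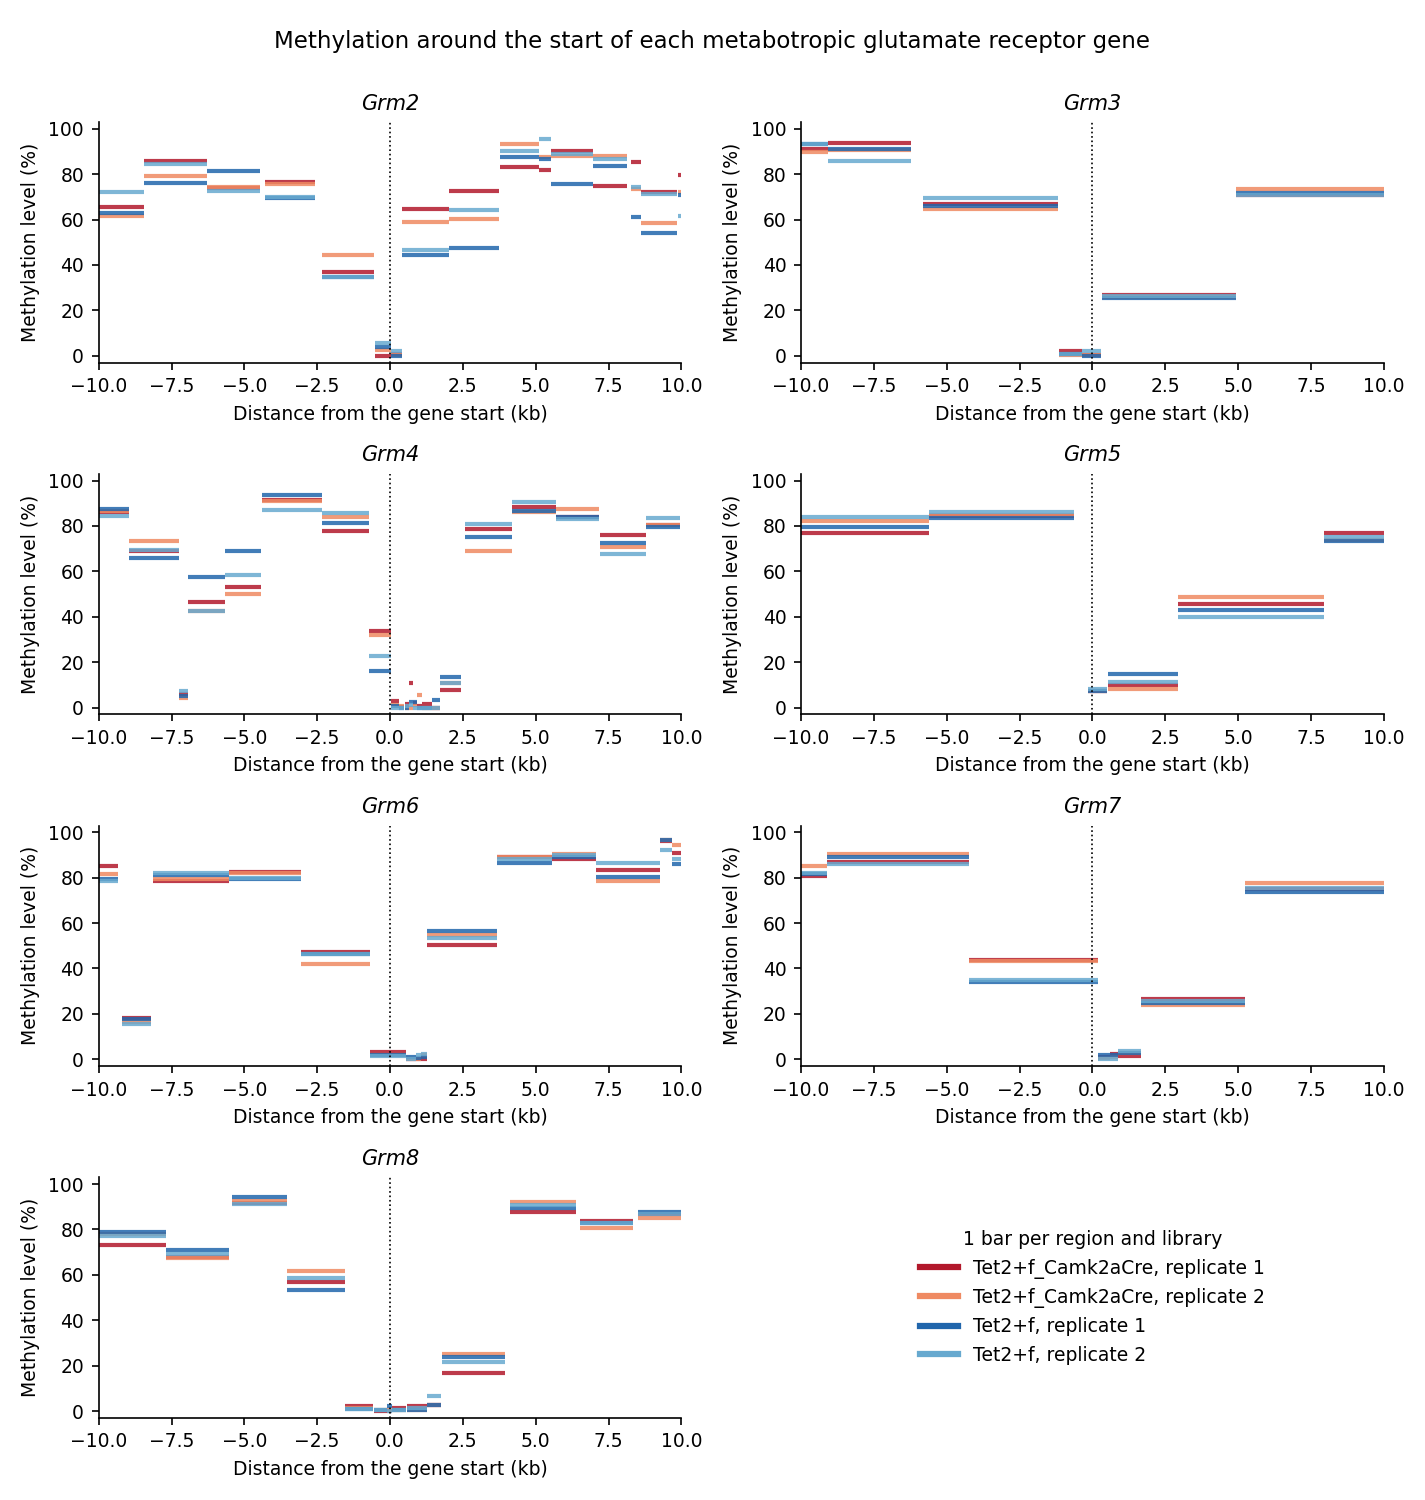
Methylation level (percent) against distance from the gene start (kb, positive into the gene) for each gene, with 1 bar per region and library. All genes drop to a few percent at or just inside the start, Grm5 to 7.45% on average. The Cre libraries lie above the control libraries just upstream of the drop at Grm4 and Grm7 and on either side of it at Grm2.

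The regions next to the unmethylated stretch carried the widest gaps between the groups at the gene starts. Inside Grm2, from 403 to 2032 bp after its start (chromosome 9, 106654077 to 106655706), the Cre libraries were at 64.9% and 59.1%, against 44.5% and 46.8% in the control libraries. The groups were 16.3 points apart and did not overlap (limma unadjusted p = 0.00935, adjusted p = 0.937), and leaving out any 1 library gave 13.4 to 19.2 points. Upstream of Grm2 (106656672 to 106658442) the Cre libraries were at 36.9% and 44.5%, against 34.6% and 34.6% in the control libraries. The 6.12 points there were 2.34 without Cre replicate 2 and 9.90 without Cre replicate 1. In between, over the start itself, the region of 562 bp was at 0% and 2.67% in the Cre libraries and 4.02% and 5.66% in the control libraries, with the Cre libraries lower.

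At Grm4 the region that spans the annotated start, from position -717 to 20 bp, (chromosome 17, 27513806 to 27514543) was at 33.7% and 31.9% in the Cre libraries, against 16.1% and 22.9% in the control libraries. Both Cre libraries stood above both control libraries, by 13.3 points (limma unadjusted p = 0.0163, adjusted p = 0.937). The neighbour downstream, of 292 bp, was near 0 in all libraries, at 2.72% and 1.25% in the Cre libraries and 0.741% and 0% in the control libraries. At Grm7 the region upstream of the stretch (chromosome 6, 110641105 to 110645557) was at 43.5% and 43.2% in the Cre libraries, against 33.8% and 35.04% in the control libraries. The replicates of each group lay closer together than the groups, which were 8.93 points apart (limma unadjusted p = 0.0387, adjusted p = 0.937). This region also covers the start of Gm20387, a long noncoding RNA gene on the opposite strand, and the deposited table names it for that gene.

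The remaining neighbours of these stretches mostly overlapped between the groups. Downstream of the Grm5 stretch (chromosome 7, 87586921 to 87591939) the Cre libraries were at 45.6% and 48.5%, against 42.9% and 39.7% in the control libraries, a gap of 5.78 points without overlap (limma adjusted p = 0.937). Downstream of the Grm3 stretch a region of 4585 bp was nearly equal in all libraries, at 26.7% and 25.9% in the Cre libraries and 25.4% and 26.3% in the control libraries. Downstream of the Grm7 stretch the values were 26.4% and 24.04% in the Cre libraries and 24.9% and 25.7% in the control libraries. In all, 5 of the 14 neighbours had both Cre libraries above both control libraries and 0 had them below. Among the 21769 regions that lie next to such a stretch at any gene start, 16.8% were above and 16% below, and the median difference was 0.0733 points. The median over the 14 neighbours was 0.212 points.

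The promoter levels follow from these neighbours, since regions were assigned whole. A promoter level is the mean of all regions that touch the window from 2000 bp before the gene start to 500 bp after it. Grm7 had 22.2% and 21.9% in the Cre libraries, against 17.8% and 17.5% in the control libraries, from 2 regions. The difference was 4.42 points, larger than the spread in either group, with an unadjusted p of 0.00604 by limma (adjusted p = 0.961). Grm2 had 25.6% and 26.6% in the Cre libraries, against 20.8% and 22.2% in the control libraries, a difference of 4.60 points (limma unadjusted p = 0.0142, adjusted p = 0.961). Grm4 had 23.2% and 23.5% in the Cre libraries, against 19.6% and 21.9% in the control libraries, a difference of 2.66 points (limma unadjusted p = 0.0913, adjusted p = 0.961) that was 1.53 points without control replicate 1.

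The other promoters overlapped between the groups. Grm3 had 24.1% and 22.8% in the Cre libraries and 23.1% and 24.6% in the control libraries, and Grm8, the lowest, had 12.1% and 12.9% in the Cre libraries and 11.4% and 12.1% in the control libraries. Grm5, the highest, had 45.9% and 46.1% in the Cre libraries and 45.4% and 47.3% in the control libraries, because 1 of its 2 regions is a methylated one of 5004 bp. Grm6 had 25.1% and 21.9% in the Cre libraries and 24.2% and 23.98% in the control libraries. Of the 7 promoters, 3 had both Cre libraries above both control libraries, where 17% of all 19781 promoters did and 16.7% had them below, and 2 had an unadjusted p under 0.05, where 5.07% did. With 7 genes these shares are coarse, and 0% of all promoters passed the adjusted threshold.

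**Figure D3:**
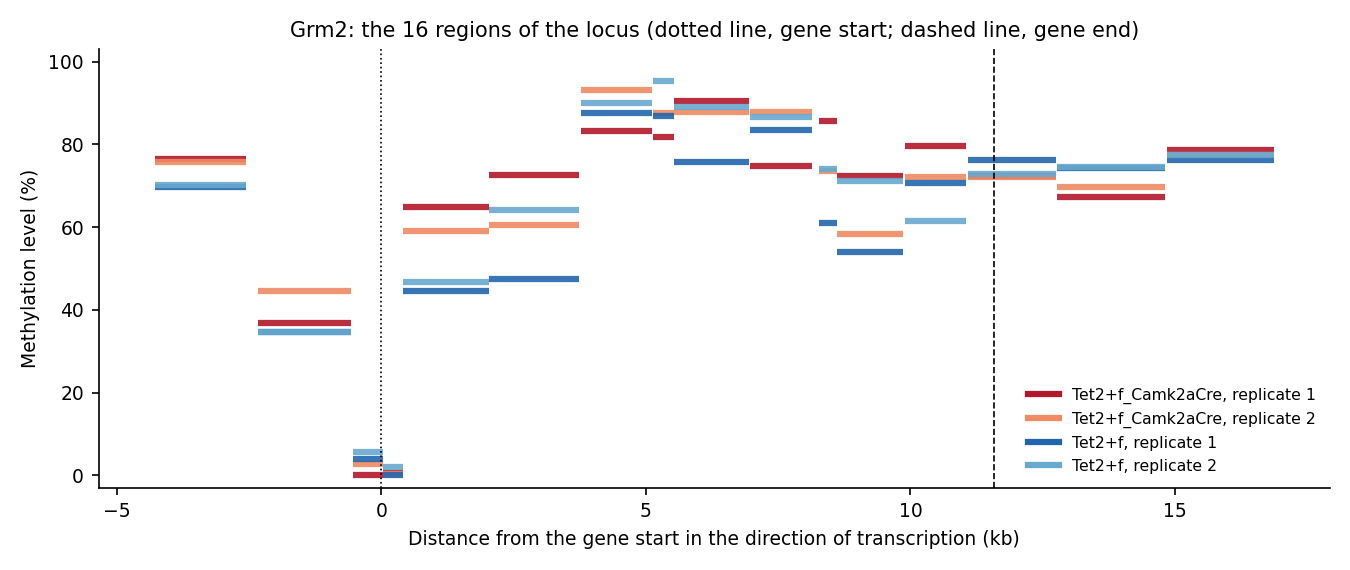
Methylation level (percent) of the 16 regions of the Grm2 locus against distance from the gene start (kb, in the direction of transcription), with 1 bar per region and library. The Cre libraries, at 64.9% and 59.1%, separate from the control libraries, at 44.5% and 46.8%, just after the start, and over most of the gene body the libraries of both groups interleave.

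Within the body of Grm2 the libraries spread widely. Between 2040 and 3727 bp after the start the Cre libraries were at 72.7% and 60.4%, against 47.6% and 64.2% in the control libraries, so 1 Cre library lay below 1 control library. A region of 330 bp further on (106647502 to 106647831) was at 85.6% and 73.5% in the Cre libraries, against 60.9% and 74.2% in the control libraries. In both, control replicate 1 was the lowest library. The 10.6 and 11.99 points of these regions became 2.32 and 5.38 points without control replicate 1, and 19.0 and 18.6 points without control replicate 2. The median gap between replicates over the 16 regions was 5.86 points in the Cre group and 2.77 points in the control group, against 2.42 and 2.46 points over all regions of the series.

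Several low-methylated regions lay far inside the receptor genes. In Grm5 a region of 225 bp near the end of the gene (chromosome 7, 88130210 to 88130434), 546229 bp after the start, was at 11.4% and 2.22% in the Cre libraries, against 5.73% and 1.87% in the control libraries. The libraries of the groups interleave there. Just before it, a region of 2666 bp was at 45.4% and 45.1% in the Cre libraries, against 58.9% and 52.1% in the control libraries. Both Cre libraries were lower, a difference of -10.2 points (limma unadjusted p = 0.0517, adjusted p = 0.937). Just after it, a region of 356 bp was at 38.9% and 36.9% in the Cre libraries, against 30.3% and 35.4% in the control libraries, so the regions on either side of this short low region differed in opposite directions.

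Inside Grm4, 3 regions near 30% were found beyond the start. A region of 1039 bp, 11461 bp after the start, was at 28.9% and 36.9% in the Cre libraries, against 28.6% and 22.4% in the control libraries. Another of 768 bp, 32959 bp after the start, was at 25.6% and 28.7% in the Cre libraries, against 32.5% and 30.2% in the control libraries. The first was higher and the second lower in the Cre group. The last, of 1623 bp at the end of the gene, was at 32.5% and 26.8% in the Cre libraries and 31.0% and 29.98% in the control libraries, with the control libraries in between. In Grm3 a region of 5478 bp, 58096 bp after the start (chromosome 5, 9661779 to 9667256), was at 49.3% and 48.7% in the Cre libraries and 49.9% and 48.1% in the control libraries. In Grm7 a region of 3789 bp, 726431 bp after the start (chromosome 6, 111371780 to 111375568), was at 47.7% and 44.7% in the Cre libraries and 38.9% and 43.8% in the control libraries. Positions of exons were not used here, so these regions are placed by distance only.

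**Figure D4:**
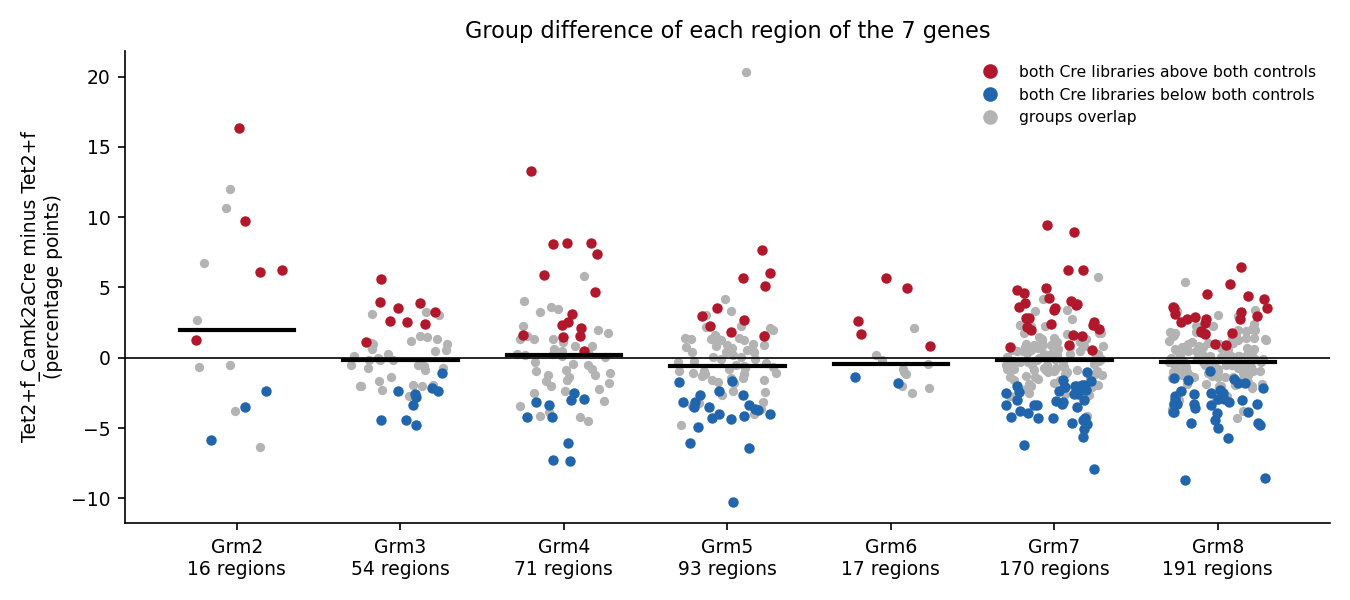
Group difference (percentage points, Tet2+f_Camk2aCre minus Tet2+f) of each of the 612 regions, by gene, with black bars at the median. Points are coloured where the groups do not overlap; the differences run from -10.2 to 20.3 points and the highest, in Grm5, is a region where the groups overlap.

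Of the 612 regions, 0 passed the adjusted threshold by limma and 23 had an unadjusted p under 0.05, 12 with the Cre group higher and 11 with it lower. That is 3.76%, against 4.6% of all 849014 regions tested, 2.25% higher and 2.35% lower, of which 0% passed after adjustment. The Cre mean was the higher in 282 regions, or 46.1%, where it was so in 49.2% of all regions. Both Cre libraries exceeded both control libraries in 95 regions and fell short of both in 119, or 15.5% and 19.4%, where 15.9% and 16.8% of all regions did so. The median difference was -0.275 points over the receptor regions and -0.0214 points over all regions. Differences of 10 points or more were seen in 6 regions, and 0.875% of all regions reached that size. The widest, 20.3 points in Grm5 (chromosome 7, 87902878 to 87907075), came from 1 library: the Cre libraries were at 92.9% and 88.2% and the control libraries at 90.5% and 50%. Without control replicate 2 it was 0.0700 points, and without control replicate 1 it was 40.5 points.

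The regions that follow were picked per gene for the smallest unadjusted p in a direction, so they are extremes of their genes. An unadjusted p under 0.05 by limma was seen in 2 of 191 regions of Grm8 (1.05%) and 5 of 170 of Grm7 (2.94%). It was seen in 3 of 54 regions of Grm3 (5.56%), 8 of 71 of Grm4 (11.3%) and 3 of 17 of Grm6 (17.6%). The share over all regions of the series was 4.6%. In Grm8 the smallest p among lower regions belonged to 3816 bp from 380491 bp after the start (chromosome 6, 27750840 to 27754655), at 80.6% and 79.0% in the Cre libraries, against 88.2% and 88.5% in the control libraries. A second lower region of Grm8 (28089957 to 28093638) was at 75.5% and 73.7% in the Cre libraries, against 84.3% and 82.3% in the control libraries. In both the Cre libraries were the 2 lowest, with differences of -8.54 and -8.72 points, with unadjusted p of 0.00651 and 0.0160 by limma. In Grm7 the widest higher region (110995951 to 111002431) was at 78.6% and 84.2% in the Cre libraries, against 70.3% and 73.5% in the control libraries, and the widest lower one (111326270 to 111332939) was at 74.6% and 76.8% in the Cre libraries, against 83.7% and 83.5% in the control libraries. Grm7 thus had gaps of 9.48 and -7.93 points in opposite directions within its body. In Grm4 a region of 1880 bp, 16484 bp after the start, was at 86.7% and 88.3% in the Cre libraries, against 94.9% and 94.9% in the control libraries. In Grm3 a region of 514 bp (chromosome 5, 9570298 to 9570811) was at 94.7% and 94.3% in the Cre libraries, against 98.2% and 97.6% in the control libraries. In Grm6 a region of 776 bp near the end of the gene was higher in the Cre group, at 93.3% and 94.7%, against 87.8% and 90.4% in the control libraries. For each of these regions the limma adjusted p was 0.937.

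The genes that act with these receptors were listed as 55 genes, and 54 had a locus level. The mean of the Cre libraries was the higher in 29 loci and the lower in 25, and the median difference was 0.1103 points, against 0.0227 points over all loci, and the share of 51.2% given for all loci compares with 29 of 54. None passed the adjusted threshold by limma, and 2 of 54 had an unadjusted p under 0.05, where 5.54% of all loci did. Among the G proteins 5 of 6 were higher, with Gnao1, the main Go subunit of brain, at 58.0% and 57.7% in the Cre libraries, against 57.1% and 57.3% in the control libraries. Effectors had 8 of 14 higher, scaffolds and binding partners 7 of 14, genes of desensitisation 6 of 11, and genes of plasticity and glutamate supply 3 of 9. The widest higher loci were Arc, an activity-induced gene that group I receptors can act on, at 38.5% and 37.9% in the Cre libraries, against 37.2% and 32.7% in the control libraries, and Homer3, a scaffold of group I receptors, at 58.0% and 59.3% in the Cre libraries, against 55.8% and 57.9% in the control libraries. The widest lower loci were Rgs11, a regulator of the G protein that Grm6 drives in the retina, at 83.2% and 83.2% in the Cre libraries, against 86.1% and 85.5% in the control libraries, and Grasp, which encodes a scaffold of group I receptors, at 44.7% and 45.2% in the Cre libraries, against 46.2% and 48.0% in the control libraries. Trpm1, the channel that Grm6 closes in the retina, had a promoter at 89.0% and 89.7% in the Cre libraries and 90.2% and 89.9% in the control libraries. By the same measure the Grm6 promoter was at 25.1% and 21.9% in the Cre libraries and 24.2% and 23.98% in the control libraries. Over promoters the Cre mean was the higher in 26 of 52 partners and the lower in 26, where it was the higher in 50.8% of all promoters.

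By promoter and locus levels over the 4 libraries, 17418 genes were searched for the protein-coding gene most like each receptor. Other kinds of gene in this set were passed over. The nearest was Gabrg1 for Grm5, Ube2d1 for Grm2, Pds5b for Grm3, Tubgcp6 for Grm4, Rpl11 for Grm6, Ptprd for Grm7 and Kcnh8 for Grm8. Likeness is the root mean square difference over 8 values, and it ran from 0.418 points for Pds5b to 1.70 points for Ube2d1. The likeness of Grm2 to its nearest protein-coding gene was thus the least close of the 7.

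The libraries differed little as a whole. Averaged over all regions, the level was 75.955% and 75.8% in the Cre libraries, against 75.7% and 76.1% in the control libraries. As a description of the tissue, promoters of CA1 pyramidal markers had a median level of 26.9% and those of dentate and CA3 markers 23.7%. The median was 37.0% for interneuron markers, 57.8% for astrocyte markers, 76.4% for oligodendrocyte markers and 78.5% for microglia markers. Each list had 4 to 6 measured genes. A promoter level is not a measure of expression, and the dentate and CA3 list was lower than the CA1 list, so these levels do not single out CA1. The CA1 list averaged 36.5% and 32.8% in the Cre libraries, against 26.9% and 27.2% in the control libraries, and without Camk2a 29.9% and 26.0% in the Cre libraries, against 26.1% and 26.5% in the control libraries. Both Cre libraries were above both control libraries in 3 of 6 CA1 promoters (2 of 5 without Camk2a) and below in 0, where 17% of all promoters were above and 16.7% below. Of the interneuron promoters 0 of 5 were above and 3 below, and each other list had at most 1 in either direction. The interneuron list averaged 41.0% and 40.8% in the Cre libraries, against 41.7% and 42.0% in the control libraries. The part of cell mix in the receptor results was not tested.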

How the data were processed

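DNA from CA1 tissue was bisulfite converted with the Accel-NGS Methyl-Seq kit and sequenced as paired reads of 150 bp, per the labels' protocols. Per the submitters' processing notes, Bismark 0.19.0, edgeR, Trim Galore 0.4.5 and FastQC 0.11.5 were used, in roles not stated, on build mm10. The deposited values are methylation levels in percent, 1 for each region in each library. How regions were drawn and CpGs averaged is not given in the sources used here, and short and long regions enter with equal weight.

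From these values, 158 regions without a value in some library were left out. Levels were put on a logit scale, as log2 of (level + 0.01) over (1 - level + 0.01) for levels between 0 and 1. Group differences were tested with limma 3.58.1 (R 4.3.3), fitted over all features with Benjamini-Hochberg adjustment at 0.05. The design foresaw read counts, which the table does not hold. Loci were formed for each deposited gene name by the rule used for the receptors. Gene starts came from RefSeq GRCm38.p6 and strands from the deposited table. The fit was run on simulated locus and promoter levels, not on single regions, and the outcome is not given here. Changes above 0 as small as those of the receptor loci and promoters were not simulated.

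The members and lists were chosen with earlier results of these data known. Named regions were, per gene, that at the start, those under 50% (at most 6), and the 2 with the smallest p in each direction; runs of low regions, their neighbours, low regions in the body of Grm4, regions of 10 points or more, and the partner genes given with values were chosen after values were seen. Alternatives were a replicate block, each library left out, other scales, offsets, priors, region lengths, weights and windows.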

Additional observations from a re-analysis of the deposited data

How the results depend on the processing

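The count of 0 regions, 0 loci and 0 promoters past the threshold held in the alternatives run, except that a trended and robust prior passed 1 promoter, Camk2a. With the replicate number as a block, 0 features passed, with smallest adjusted p of 0.954 for regions, 0.801 for loci and 0.924 for promoters. Same-numbered libraries deviated together hardly at all (r = 0.00648 across regions), so a shared number was not read as a pair. Alternatives that need counts or coverage were not run, and where 1 library was left in a group, its variance was taken from the other group. The alternative without levels of exactly 0 or 100% was chosen after seeing the data. The Grm4 locus difference was -0.00823 points when weighted by length. With 500 bp on either side of the start, the promoter difference was 0.116 points for Grm3, 0.855 for Grm6 and -0.232 for Grm8. Leaving out 1 library at a time, locus differences ran from -0.596 to 0.456 points for Grm3, -0.388 to 0.899 for Grm4, -0.742 to -0.0338 for Grm5, 0.0927 to 0.452 for Grm6, -0.304 to 0.115 for Grm7 and -0.784 to 0.145 for Grm8. Promoter differences ran from -1.16 to 0.358 for Grm3, -1.30 to 0.518 for Grm5 and -2.20 to 1.04 for Grm6. Neighbours of the unmethylated stretches ran from -4.73 to 0.704 upstream and -4.32 to 0.0428 downstream at Grm6, -8.86 to 0.630 downstream at Grm4, -6.18 to 2.21 downstream at Grm8, -1.25 to 1.13 downstream at Grm7 and -1.54 to 1.09 upstream at Grm5. The cause was not tested.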

Other observations

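Other genes lie within the receptor loci. Mir592, a microRNA gene inside Grm8 (chromosome 6, 27936655 to 27936750), lay in a region at 76.9% and 82.1% in the Cre libraries and 83.2% and 80.2% in the control libraries. Gm52896, a long noncoding RNA gene near the start of Grm8, overlapped 7 regions that averaged 82.6% and 82.7% in the Cre libraries and 82.0% and 82.6% in the control libraries. A region that lies mostly within Tex264, upstream of Grm2, and carries the name Tex264 in the deposited table, was at 76.5% and 75.8% in the Cre libraries, against 69.6% and 70.1% in the control libraries, 6.25 points higher in the Cre group without passing the threshold (limma adjusted p = 0.937).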
